A study of Mus musculus with 8 samples.

Results

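Eomes, Tbx21, Prdm1, Zfp683, Bhlhe40, Zeb2 and Hic1 encode transcription factors that steer CD8+ T cells between effector, memory and tissue-resident fates. These 7 genes were taken by gene name from a table of 47069 genes. The study stimulated OT-I T cells, CD8+ T cells that carry a transgenic receptor for an ovalbumin peptide, with the low affinity peptide OVA-T4 and asked how TGFβ alters the response. RNA was measured in 4 libraries of OVA-T4 + TGFβ, with 10 nM peptide and 5 ng/ml recombinant human TGFβ for 24 h. It was also measured in 4 libraries of OVA-T4, with the same peptide dose and time and no added TGFβ. The cells of every library came from lymph nodes, and the labels give their genotype as WT. The methods name young adult OT-I or OT-I Rag1-/- mice without saying which gave these libraries. No sort for CD8+ T cells is described for them and no unstimulated library was analysed here, so each level is that of a stimulated lymph node culture. The labels call the libraries biological replicates without naming the animal or culture behind each.

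T-box factors bind DNA through a shared domain. T-bet, encoded by Tbx21, and eomesodermin, encoded by Eomes, together drive cytotoxic and interferon-γ genes in CD8+ T cells. Blimp-1, encoded by Prdm1, and its homologue Hobit, encoded by Zfp683, are zinc finger repressors that in mice act together in tissue-resident memory T cells on genes for tissue exit and for central memory. Bhlhe40 is a basic helix-loop-helix repressor that is induced by receptor stimulation and sustains mitochondrial function in resident cells, Zeb2 acts with T-bet in terminal effector differentiation, and Hic1 is a zinc finger repressor needed for residency in the mouse intestine.

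Eomes was the member that moved most. Its transcript was 16.95-fold lower in OVA-T4 + TGFβ libraries than in OVA-T4 libraries by the ratio of means, while Tbx21, the other T-box member, was 1.56-fold lower. Bhlhe40 was 2.16-fold higher and Zfp683 2.36-fold higher with TGFβ. Hic1 and Zeb2 did not pass the test, and Prdm1 lay near the limit of detection in every library. Of the 6 members that passed a filter on low values, 2 rose, 2 fell and 2 did not pass, where over all 12879 genes tested 51.0% were called (30.7% higher and 20.2% lower). The 4 calls among 6 members are to be read against that background. The split of all calls was 3955 higher and 2607 lower, and 3129 higher and 3460 lower when libraries were scaled by the median of ratios. Levels are in FPKM, fragments scaled to transcript length and to the reads of the library. Differences are on the log2(FPKM + 0.5) scale, OVA-T4 + TGFβ minus OVA-T4, from limma with Benjamini-Hochberg adjustment over all genes tested, with a threshold of 0.05.

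**Figure D1:**
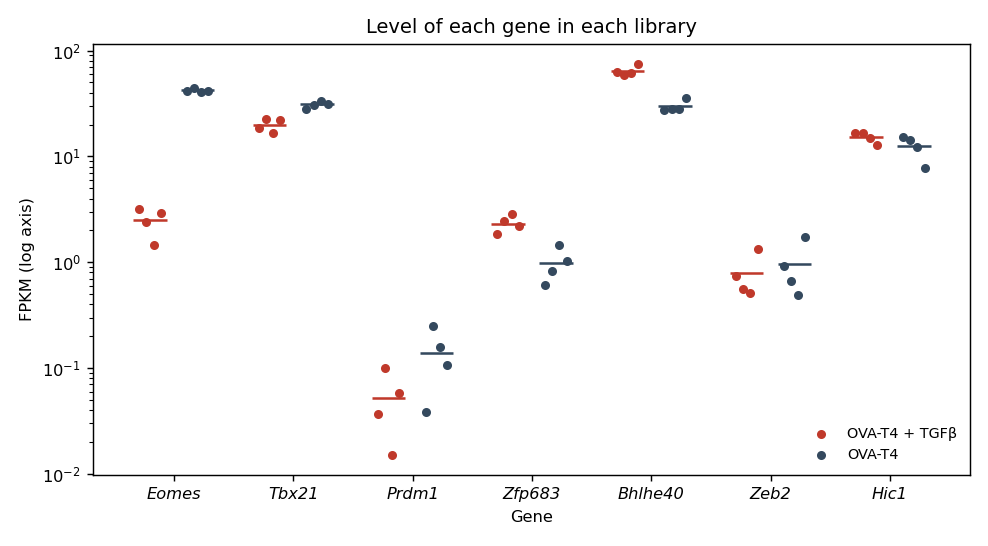
FPKM of the 7 genes on a log axis, with 1 point per library, numbers 1 to 4 from left to right within each group, and a bar at the group mean (n = 4 each). The groups stand apart for Eomes, Tbx21, Zfp683 and Bhlhe40 and overlap for Prdm1, Zeb2 and Hic1.

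The libraries held 35586261 to 40040249 reads with OVA-T4 + TGFβ and 35839293 to 41597929 reads with OVA-T4, solved from the deposited values. A read in a transcript of 1 kb was worth 0.0240 to 0.0281 FPKM. The 8 markers of CD8 T cells, such as Cd3e and Cd8a, summed to 3051 to 3257 FPKM with OVA-T4 + TGFβ and to 2493 to 2793 FPKM with OVA-T4. Markers of other cells were far lower. The 8 macrophage and monocyte markers summed to 10.9 to 46.6 FPKM with TGFβ and 4.81 to 13.2 FPKM without, led by Lyz2. The 7 dendritic cell markers summed to 11.0 to 14.4 FPKM with TGFβ and 3.21 to 7.07 FPKM without, and the 7 B and plasma cell markers to 11.3 to 12.9 FPKM with TGFβ and 4.47 to 5.84 FPKM without. Of the B cell markers, the defining gene Ms4a1 was at 0 in all 8 libraries. The 5 NK and ILC1 markers summed to 1.63 to 5.07 FPKM with TGFβ and 0.280 to 2.70 FPKM without, nearly all of it Tyrobp, and the highest of Ncr1, Klrb1c, Klra8 and Klra4 in any library was 0.135 FPKM. Cd4 and Cd40lg of CD4 T cells summed to 1.82 to 3.75 FPKM with TGFβ and 2.39 to 4.64 FPKM without. The 10 stromal and endothelial markers summed to 22.5 to 31.8 FPKM with TGFβ and 25.4 to 34.5 FPKM without, nearly all of it Pecam1, with Pdgfra and Ccl19 at 0. The summed levels of the macrophage, dendritic and B cell lists were each higher with TGFβ on average, and their part in the results below was not tested. In bulk RNA, fewer cells that express a gene and less RNA per cell cannot be told apart.

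Eomes lies on chromosome 9 of GRCm38 from 118478212 to 118486132 on the plus strand, and Tbx21 on chromosome 11 from 97098071 to 97115331 on the minus strand. The promoter windows of this T-box pair are shown because both genes fell with TGFβ. Each runs from 250 bases before to 50 bases after the start that RefSeq gives the gene, 5′ to 3′ on the gene's strand, in RefSeq sequence of GRCm38.p6. For Eomes that start lies upstream of the GENCODE M21 start given above, and for Tbx21 they are the same base. The Eomes window is chr9:118477939-118478238 and the Tbx21 window is chr11:97115282-97115581. Capitals mark CAGGTG, an E-box to which Zeb factors bind.
Eomes: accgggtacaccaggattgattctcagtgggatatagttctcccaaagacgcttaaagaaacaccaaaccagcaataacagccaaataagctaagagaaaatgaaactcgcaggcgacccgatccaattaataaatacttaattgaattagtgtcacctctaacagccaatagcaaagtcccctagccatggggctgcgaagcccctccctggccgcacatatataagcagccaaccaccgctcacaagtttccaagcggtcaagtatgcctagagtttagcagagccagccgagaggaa
Tbx21: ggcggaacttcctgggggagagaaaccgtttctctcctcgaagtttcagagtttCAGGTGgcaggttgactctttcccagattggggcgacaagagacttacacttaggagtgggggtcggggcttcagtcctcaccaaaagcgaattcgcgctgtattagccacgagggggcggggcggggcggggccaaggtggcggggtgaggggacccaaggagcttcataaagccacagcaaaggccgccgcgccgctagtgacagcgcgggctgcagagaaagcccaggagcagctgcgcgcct
CAGGTG began at position -196 of the Tbx21 window, and 20.2% of 32851 mouse windows of this length held it on either strand. The Eomes window held none of the 6 motifs searched on both strands. Besides CAGGTG these were the SMAD palindrome GTCTAGAC (in 0.213% of all windows), the shorter SMAD motif CAGAC (49.6%), the E-box CACGTG of Myc and Bhlhe40 (7.15%), the T-box motif AGGTGTGA (1.28%) and the AP-1 and Bach2 motif TGANTCA (7.81%). CAGAC lies within no other of these motifs, and CAGGTG and AGGTGTGA share letters where they overlap. Windows were given for 5 of the 7 members. Prdm1 held CAGAC 3 times, CAGGTG once and TGANTCA once, the window of Zeb2 listed first held TGANTCA 2 times, and the window of Hic1 listed first held CAGGTG once. These matches are descriptions of the letters and say nothing of binding in these cells.

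Eomes was at 3.19, 2.41, 1.47 and 2.89 FPKM in the 4 OVA-T4 + TGFβ libraries (344, 231, 156 and 279 reads). It was at 41.9, 44.8, 40.8 and 41.4 FPKM in the 4 OVA-T4 libraries (4315, 4320, 4555 and 4639 reads). Every TGFβ-treated library lay far below every OVA-T4 library, and library 3 was the lowest of the treated ones. The means were 2.49 ± 0.753 FPKM with OVA-T4 + TGFβ and 42.2 ± 1.76 FPKM with OVA-T4 (SD, n = 4 each). The log2 difference was -3.87 (SE 0.17, limma adjusted p = 6.63e-07), the lowest but 1 of all genes tested. Relative to the mean, the libraries spread more with TGFβ (coefficient of variation 30.2%) than without (4.17%). An antisense gene, Gm33460, overlaps Eomes and was not analysed here, and the strand used in counting is not stated.

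Tbx21 was at 18.4, 22.5, 16.5 and 22.2 FPKM with OVA-T4 + TGFβ (1832, 1992, 1616 and 1976 reads), against 28.3, 30.8, 33.3 and 31.4 FPKM with OVA-T4 (2691, 2749, 3438 and 3247 reads). The treated libraries were all lower and the groups did not overlap, as held for 48.1% of all genes tested. The gap between the highest treated and the lowest untreated library was small beside that of Eomes. Tbx21 averaged 19.9 ± 2.94 FPKM with OVA-T4 + TGFβ and 31.0 ± 2.07 FPKM with OVA-T4 (SD, n = 4 each), a log2 difference of -0.64 (SE 0.10, limma adjusted p = 8.81e-04).

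The balance within the T-box pair differed between the groups. Tbx21 made up 85.2%, 90.3%, 91.8% and 88.5% of the summed Tbx21 and Eomes FPKM with OVA-T4 + TGFβ. With OVA-T4 its share was 40.3%, 40.8%, 45.0% and 43.1%. Eomes was thus the more abundant of the pair, per mean transcript length, in each OVA-T4 library, and Tbx21 in each TGFβ-treated library. The summed level was 22.4 ± 3.36 FPKM with OVA-T4 + TGFβ and 73.2 ± 2.29 FPKM with OVA-T4 (SD, n = 4 each). The log2 ratio of Tbx21 over Eomes, with 0.5 FPKM added to each, averaged 2.80 ± 0.33 with OVA-T4 + TGFβ and -0.44 ± 0.13 with OVA-T4 (SD, n = 4 each). The difference of 3.24 had an exact permutation p of 0.0286 (two-sided, n = 4 each), the smallest that 4 against 4 allows, and 0.0429 when adjusted over the 3 ratios tested. Eomes and Tbx21 were thus lowered to unequal degrees.

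**Figure D2:**
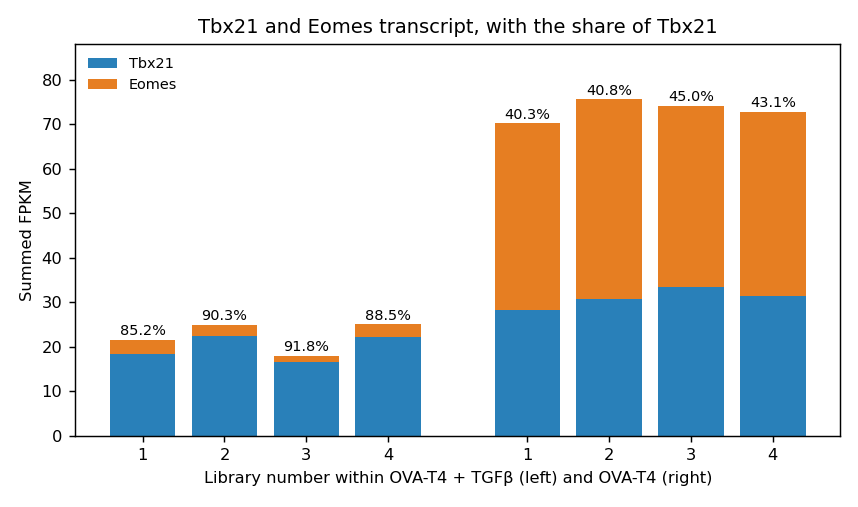
Summed FPKM of Tbx21 and Eomes in each library, OVA-T4 + TGFβ at left and OVA-T4 at right, with the share of Tbx21 in percent above each bar. The sums were 17.9 to 25.1 FPKM with TGFβ and 70.2 to 75.6 FPKM without, and most of the gap is Eomes.

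A list of T-box effector targets held 17 genes, of which 12 were tested. With TGFβ 3 of these rose, 6 fell and 3 missed the threshold, where 30.7% of all genes tested rose and 20.2% fell. Their median difference was -0.65 on the log2 scale, against 0.08 over all genes tested. Gzmb, the granzyme B gene of cytotoxic granules, was at 15.9 ± 4.09 FPKM with OVA-T4 + TGFβ and 422 ± 121 FPKM with OVA-T4 (log2 difference -4.68, limma adjusted p = 1.12e-06). The death receptor ligand gene Fasl (-1.75) and the chemokine gene Ccl3 (-1.09) fell too. The target gene that rose most, Cx3cr1, encodes the fractalkine receptor that marks terminal effector cells. It was at 2.73 ± 0.72 FPKM with OVA-T4 + TGFβ and 0.0192 ± 0.0298 FPKM with OVA-T4 (SD, n = 4 each), a log2 difference of 2.61 (limma adjusted p = 6.62e-06) that the added 0.5 FPKM holds down. Macrophages also express Cx3cr1, the macrophage marker sums stand above, and the part of those cells in the Cx3cr1 level was not tested. The other targets that rose were Cxcr3 (0.92) and Il2rb (0.27), and Il2rb lost its call under median of ratios scaling. Ifng, at -0.64, missed the threshold (limma adjusted p = 0.119).

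The Blimp-1 and Hobit pair differed in level. Prdm1 lies on chromosome 10 from 44437177 to 44528501 on the minus strand, and Zfp683 on chromosome 4 from 134053838 to 134058996 on the plus strand. Prdm1 had 5, 12, 2 and 7 reads with OVA-T4 + TGFβ (0.0370, 0.0998, 0.0150 and 0.0578 FPKM), against 5, 30, 22 and 15 reads with OVA-T4 (0.0387, 0.248, 0.157 and 0.107 FPKM). The groups overlapped, with OVA-T4 library 1 as low as the treated libraries. Summed over libraries there were 26 reads with OVA-T4 + TGFβ (95% exact Poisson interval 17.0 to 38.1) and 72 with OVA-T4 (56.3 to 90.7). These intervals cover counting error only. Prdm1 fell below the filter of a mean of 0.5 FPKM. Without the filter its log2 difference was -0.20 (limma adjusted p = 0.200). The added 0.5 FPKM exceeds every Prdm1 value and holds this difference near 0. With 0.1 FPKM added the difference was -0.59, with no test. A weighted fit of the solved reads with voom and no filter gave -1.34 (adjusted p = 0.186). The counting intervals of the summed reads did not overlap, but the libraries did, and Prdm1 passed neither fit. Within same-numbered libraries, a pairing that the labels do not establish, the log2 differences without the filter were -0.0047, -0.32, -0.35 and -0.12. Both libraries of number 1 had 5 reads, so the first of these is a tie in reads.

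Zfp683 was at 1.83, 2.43, 2.83 and 2.20 FPKM with OVA-T4 + TGFβ (108, 127, 164 and 116 reads). It was at 0.605, 0.835, 1.46 and 1.03 FPKM with OVA-T4 (34, 44, 89 and 63 reads). All treated libraries were higher, and the lowest of them lay little above OVA-T4 library 3, the highest of the untreated ones. Zfp683 averaged 2.32 ± 0.416 FPKM with OVA-T4 + TGFβ and 0.982 ± 0.362 FPKM with OVA-T4 (SD, n = 4 each), a log2 difference of 0.95 (SE 0.19, limma adjusted p = 0.00291).

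Bcl6 encodes a repressor that opposes Blimp-1 in lymphocytes. It was at 3.75 ± 0.607 FPKM with OVA-T4 + TGFβ and 1.48 ± 0.418 FPKM with OVA-T4 (SD, n = 4 each), a log2 difference of 1.11 (limma adjusted p = 5.30e-04). Libraries 1 and 4 were the highest for Bcl6 with OVA-T4 + TGFβ (4.42 and 4.09 FPKM) and with OVA-T4 (2.08 and 1.39 FPKM). The same libraries had the highest macrophage marker sums, and the part of those cells in the Bcl6 level was not tested. The log2 ratio of Prdm1 over Bcl6 averaged -2.94 ± 0.22 with OVA-T4 + TGFβ and -1.62 ± 0.45 with OVA-T4, a difference of -1.31 (exact permutation p = 0.0286, two-sided, n = 4 each, adjusted over 3 ratios 0.0429). With Prdm1 near 0 in all libraries, this ratio followed Bcl6 for the most part. Leaving out any 1 of the 4 OVA-T4 + TGFβ libraries gave differences of -1.39 to -1.23 with an exact permutation p of 0.0571.

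Of 12 genes that Blimp-1 or Hobit is known to repress in mouse lymphocytes, 11 were tested, and 6 rose, 2 fell and 3 missed the threshold (30.7% and 20.2% of all genes tested rose and fell), with a median log2 difference of 0.36. S1pr1, the sphingosine phosphate receptor that lets T cells leave tissue, was at 27.7 ± 4.51 FPKM with OVA-T4 + TGFβ and 10.5 ± 1.10 FPKM with OVA-T4 (SD, n = 4 each; log2 difference 1.35, limma adjusted p = 2.74e-05). Klf2, the factor that drives S1pr1, differed by 1.18. S1pr1 and Klf2, genes of tissue exit, were higher with TGFβ, as was Zfp683, and a relation between them was not tested. Myc, which drives growth and metabolism in activated T cells, was the lowest of the list (-1.46).

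Bhlhe40 lies on chromosome 6 from 108660629 to 108666925 on the plus strand. It was at 63.1, 58.6, 61.7 and 75.4 FPKM with OVA-T4 + TGFβ (4153, 3426, 4002 and 4443 reads), against 27.4, 28.1, 28.3 and 35.8 FPKM with OVA-T4 (1723, 1657, 1933 and 2447 reads). Library 4 was the highest in both groups, and the lowest treated library still exceeded the highest OVA-T4 library by a wide margin. The means of Bhlhe40 were 64.7 ± 7.39 FPKM with OVA-T4 + TGFβ and 29.9 ± 3.93 FPKM with OVA-T4 (SD, n = 4 each), a log2 difference of 1.10 (SE 0.10, limma adjusted p = 3.48e-05). The same-numbered libraries differed by 1.05 to 1.19, the narrowest range of the 6 tested members. The antisense gene 0610040F04Rik, which overlaps Bhlhe40, averaged 0.0184 FPKM with OVA-T4 + TGFβ and was at 0 with OVA-T4. Among cytokine genes that Bhlhe40 is known to act on in mouse T cells, Il10, which it represses, had 3 reads over the OVA-T4 + TGFβ libraries and 7 over the OVA-T4 libraries. Csf2, the gene for GM-CSF that Bhlhe40 promotes, had 0 reads over the OVA-T4 + TGFβ libraries, with a 95% exact Poisson upper bound of 3.69, and 25 over the OVA-T4 libraries (interval 16.2 to 36.9). The gene for GM-CSF thus had reads in each OVA-T4 library and in no treated library, at levels under 0.33 FPKM.

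Zeb2 lies on chromosome 2 from 44983632 to 45117395 on the minus strand. It was at 0.734, 0.563, 0.508 and 1.34 FPKM with OVA-T4 + TGFβ (66, 45, 45 and 108 reads), against 0.920, 0.658, 0.494 and 1.74 FPKM with OVA-T4 (79, 53, 46 and 163 reads). The groups overlapped, and libraries 4 and 1 were the highest in each. Zeb2 averaged 0.787 ± 0.382 FPKM with OVA-T4 + TGFβ and 0.954 ± 0.555 FPKM with OVA-T4 (SD, n = 4 each), a log2 difference of -0.15 (SE 0.29, limma adjusted p = 0.692) that turned to 0.08 without OVA-T4 library 4. The antisense gene Zeb2os, which overlaps Zeb2, averaged 0.00501 FPKM with OVA-T4 + TGFβ and was at 0 with OVA-T4. Macrophages express Zeb2 as well. The summed macrophage and monocyte markers were 46.6, 18.8, 10.9 and 37.9 FPKM in the 4 OVA-T4 + TGFβ libraries and 13.1, 7.21, 4.81 and 13.2 FPKM in the 4 OVA-T4 libraries. Libraries 1 and 4 were the highest in each group by that measure too, and the part of those cells in the Zeb2 level was not tested. Zeb1, the other gene of the family and one that the memory pathway uses, was at 15.7 ± 1.08 FPKM with OVA-T4 + TGFβ and 15.1 ± 1.34 FPKM with OVA-T4 (SD, n = 4 each), a log2 difference of 0.05 (limma adjusted p = 0.586) that turned to -0.07 under quantile normalization. The log2 ratio of Zeb2 over Zeb1 averaged -3.69 ± 0.41 with OVA-T4 + TGFβ and -3.49 ± 0.43 with OVA-T4, a difference of -0.20 (exact permutation p = 0.514, two-sided, n = 4 each). Zeb1 was thus the more abundant family member in all 8 libraries, and the ratio did not pass the test.

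Hic1 lies on chromosome 11 from 75164565 to 75169519 on the minus strand. It was at 16.7, 16.6, 14.8 and 12.9 FPKM with OVA-T4 + TGFβ (1381, 1222, 1209 and 955 reads), against 15.2, 14.4, 12.4 and 7.78 FPKM with OVA-T4 (1201, 1066, 1061 and 670 reads). OVA-T4 library 4 stood low, the other libraries overlapped between groups, and library 4 was the lowest of both. Hic1 averaged 15.2 ± 1.79 FPKM with OVA-T4 + TGFβ and 12.4 ± 3.31 FPKM with OVA-T4 (SD, n = 4 each), a log2 difference of 0.32 (SE 0.19, limma adjusted p = 0.189). Within same-numbered libraries, a pairing that the labels do not establish, Hic1 was higher with TGFβ in 4 of 4, by 0.13, 0.20, 0.25 and 0.69. With the replicate number as a block the same log2 difference had a limma adjusted p of 0.0238, in a fit that called 60.8% of all genes tested. Of 22 alternatives, this fit with a block was the only one in which Hic1 passed the test.

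**Figure D3:**
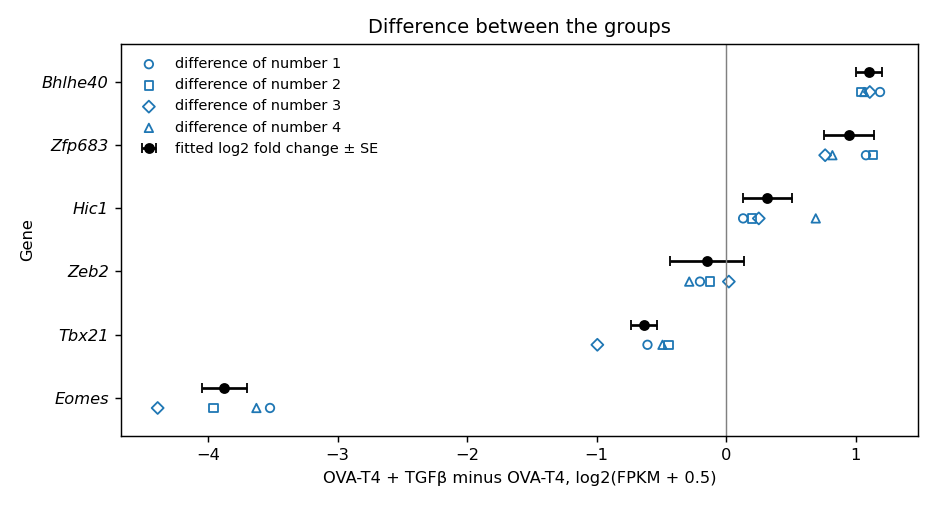
Log2 differences of the 6 tested members, OVA-T4 + TGFβ minus OVA-T4, on the log2(FPKM + 0.5) scale. Black points are the limma estimates with their SE, and open symbols are the differences between same-numbered libraries 1 to 4. All 4 lie on the same side of 0 for every gene but Zeb2. A pairing by number is not established, and the share of all genes for which this holds is not given here.

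In OVA-T4 + TGFβ libraries the level in FPKM was highest for Bhlhe40, followed by Tbx21, Hic1, Eomes, Zfp683, Zeb2 and Prdm1. In OVA-T4 libraries the order was Eomes, Tbx21, Bhlhe40, Hic1, Zfp683, Zeb2 and Prdm1. Neighbours whose library ranges overlapped were Tbx21 and Hic1, and Eomes and Zfp683, with TGFβ. Without TGFβ they were Tbx21 and Bhlhe40, and Zfp683 and Zeb2. Eomes thus stood at the top of the members in OVA-T4 libraries and level with Zfp683 in treated ones. The order depends on the length each value was divided by. That length was the mean transcript length in GENCODE M21, rounded, for all members but Prdm1 and Zeb2. For Prdm1 it was 3379 bases against a mean of 3163, and for Zeb2 2246 against 2189. For Bhlhe40 that length was 1644 bases, where its exons together span 4705 bases, and for Zeb2 it was 2246 bases, where they span 19942 bases. By the exons together, Bhlhe40 averaged 22.6 with OVA-T4 + TGFβ and overlapped Tbx21, Tbx21 came before Eomes with OVA-T4, and Zeb2 averaged 0.0886 with OVA-T4 + TGFβ and 0.107 with OVA-T4 and overlapped Prdm1 in both groups.

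Genes whose log2 profiles over the 8 libraries lay nearest to each tested member, by Euclidean distance of centred values among protein-coding genes, were as follows. For Eomes they were Gzmb, Wnt10a and Bspry at distances of 1.77, 2.10 and 2.46, farther than the nearest genes of the other members. For Bhlhe40 they were Galnt6, Qrfp and Rhof (0.234 to 0.253) and for Tbx21 Wdr55, Rps19bp1 and Aldoa (0.206 to 0.221). Zfp683 lay nearest to Il7r, an interleukin 7 receptor gene, followed by Lzts1 and Treml2 (0.320 to 0.412). Zeb2 lay nearest to Gys1, Tagap and Rgs11 (0.222 to 0.385), and Hic1 to Jam3, Ttc41 and Mfge8 (0.441 to 0.461).

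A list of residency surface and signalling genes held 18 genes, of which 14 were tested. By limma 10 of these rose with TGFβ, 0 fell and 4 missed the threshold, against 30.7% that rose and 20.2% that fell over all genes tested. At an unadjusted p under 0.05, 11 were higher and 0 lower, and voom on the solved reads called 10 higher and 0 lower. The median log2 difference was 1.44. Itgae, the CD103 integrin chain that holds resident cells in epithelium, was at 231 ± 22.2 FPKM with OVA-T4 + TGFβ and 7.05 ± 2.26 FPKM with OVA-T4 (SD, n = 4 each), a log2 difference of 4.98 (limma adjusted p = 2.63e-07). The ectonucleotidase genes Entpd1 (4.04) and Nt5e (3.97), for CD39 and CD73, rose with it, as did Cdh1 (2.58), the gene for E-cadherin. Cdh1 was at 0.0202 ± 0.00774 FPKM in OVA-T4 libraries, so that its log2 value is held down by the added 0.5 FPKM.

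Among 30 other transcription factors of effector, memory and residency fate, all of which were tested, 18 rose, 5 fell and 7 missed the threshold, with a median log2 difference of 0.36. Over all genes tested 51.0% were called, 30.7% higher and 20.2% lower. With median of ratios scaling 14 of the 30 were called higher and 7 lower. Klf2, Tcf7, Bcl6 and Id3, all called higher, stand in the list of genes repressed by Blimp-1 or Hobit too, so the counts of these lists share them. Maf, a factor of interleukin 10 producing and follicular T cells, was at 3.43 ± 0.871 FPKM with OVA-T4 + TGFβ and 0.0508 ± 0.0301 FPKM with OVA-T4 (SD, n = 4 each), a log2 difference of 2.81 (limma adjusted p = 3.74e-06). The added 0.5 FPKM holds the value of Maf down, and voom on the solved reads gave 6.28. Runx1 (2.68), Rora (2.55) and Ahr (1.85), the last a ligand-gated factor needed for resident cells in skin, were the next highest on the log2(FPKM + 0.5) scale. Batf, an AP-1 factor of receptor-stimulated T cells, fell most in this list (-0.98). None of the 5 that fell approached the difference of Eomes.

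Of 32 further T-box, PRDM, ZEB, HIC and related genes, 20 did not reach the filter, 9 of them at 0 in all 8 libraries, and 12 were tested. By limma 5 of the 12 rose with TGFβ, 0 fell and 7 missed the threshold, with a median log2 difference of 0.09. The 41.7% called lay below the 51.0% over all genes tested. At an unadjusted p under 0.05, 5 were higher and 3 lower, voom on the solved reads called 5 higher and 2 lower, median of ratios scaling called 3 higher and 2 lower, and quantile normalization called 3 higher and 5 lower. The T-box gene Tbx6 was at 2.95 ± 1.05 FPKM with OVA-T4 + TGFβ and 0.364 ± 0.214 FPKM with OVA-T4 (SD, n = 4 each), a log2 difference of 1.98 (limma adjusted p = 2.65e-04). Of the other T-box genes outside the members, Mga, which encodes a partner of Max, was the only one to reach the filter, and its log2 difference of 0.12 did not pass the test. Among the PRDM genes, Prdm9, known for its part in meiosis, differed by 0.94, and Prdm2, Prdm11 and Prdm10 by 0.45, 0.37 and 0.30. Prdm11 and Prdm10 lost their call under median of ratios scaling and under quantile normalization. Prdm4 (-0.18), Prdm15 (-0.28), Prdm16 (-0.38) and Hic2 (-0.11) did not pass, although Prdm4 and Prdm15 were called lower under both of those scalings. With the replicate number as a block, Prdm15 had a limma adjusted p of 0.0109 and Prdm16 of 0.0292. With OVA-T4 + TGFβ, Mga at 19.9 ± 0.466 FPKM was as high as Tbx21, and the Tbx6 and Eomes ranges overlapped. With OVA-T4, Mga was at 18.5 ± 3.42 FPKM, and Eomes and Tbx21 were the highest T-box genes.

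**Figure D4:**
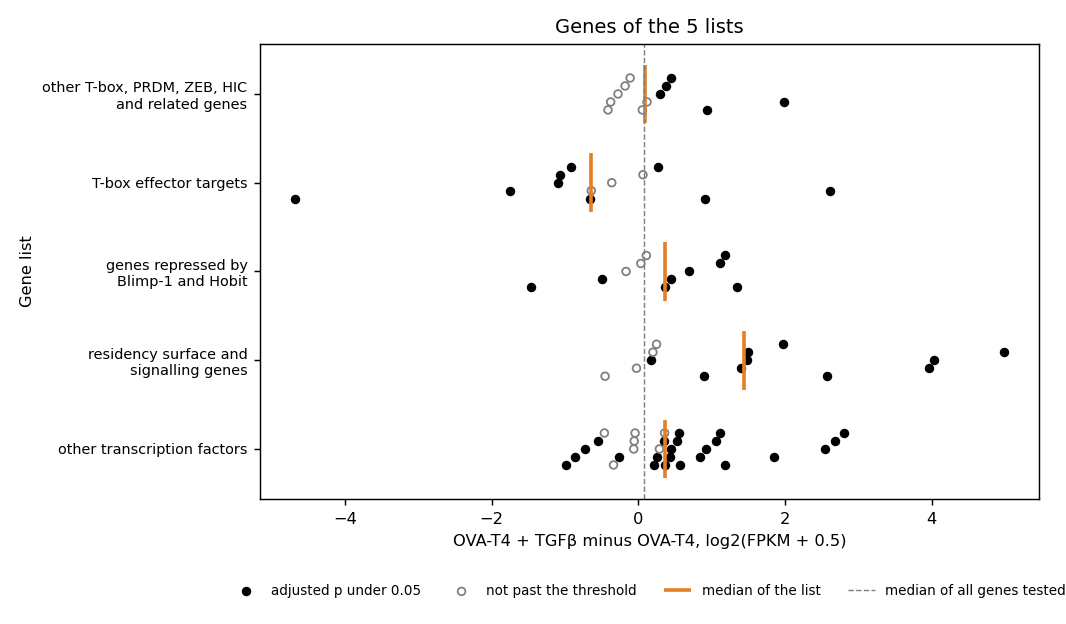
Log2 difference, OVA-T4 + TGFβ minus OVA-T4, of each tested gene in the 5 lists. Filled points passed the threshold of 0.05 on the adjusted p, orange bars are list medians and the dashed line is the median of all genes tested (0.08). The residency list lies furthest to the right (median 1.44) and the T-box targets furthest to the left (median -0.65). Klf2, Tcf7, Bcl6 and Id3 are drawn both with the genes repressed by Blimp-1 and Hobit and with the other transcription factors.

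The 4 called members kept their direction and their call under all 22 alternatives that gave them a value. Over these, the log2 difference ranged between -4.14 and -3.66 for Eomes, -0.74 and -0.55 for Tbx21, 0.69 and 1.27 for Zfp683, and 1.00 and 1.19 for Bhlhe40. Hic1 ranged between 0.12 and 0.43 and was called in 1 of 22. Zeb2 ranged between -0.41 and 0.08 and was called in 0 of 21, with adjusted p between 0.221 and 0.915.

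**Figure D5:**
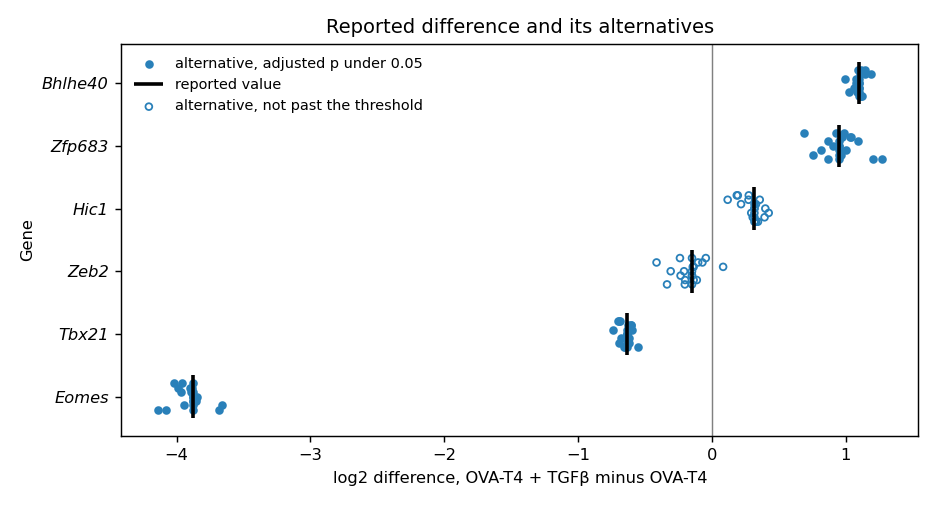
Log2 difference of the 6 tested members under each alternative (points, filled where the adjusted p was under 0.05) and as reported (black bars). Eomes, Tbx21, Zfp683 and Bhlhe40 stay filled on their side of 0, and the points of Zeb2 lie on both sides.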

How the data were processed

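FPKM values for all 8 libraries were deposited by the authors in 1 table. CASAVA, HISAT2, HTSeq and the build mm10 stand in the submitters' processing notes, and their versions are not given in the sources used here. The methods say that the authors used DESeq2 on their counts, which were not used here. Each gene's reads were solved from the deposited FPKM values. Of 15418 genes above 0 in all 8 libraries, 99.8% gave whole reads within 0.005 and a whole length within 0.02 bases. GENCODE M21 held 98.9% of the gene IDs. Values of log2(FPKM + 0.5) were fitted with limma (version 3.58.1, R 4.3.3), with a variance trend and no block, for genes that averaged 0.5 FPKM or more. It took the place of the authors' count test, which needs counts. Scripts were tested on simulated data.

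The members and gene lists were chosen with earlier results of these data known. Genes named from the lists were the 4 with the largest absolute log2 difference among those called, the largest in the other direction, the tested family genes but 1 that is not reported here, and the 3 nearest profiles of each member. The deviations of same-numbered libraries from their group means correlated at 0.179, 0.205, 0.419 and 0.505. Libraries of different numbers correlated at -0.489 to 0.254. Treated library 1 correlated more with OVA-T4 library 4 (0.246), and treated library 2 with OVA-T4 library 3 (0.239), than with their own number. The labels name no shared animal or culture, so a pairing by number is not established. The numbers were not used in the main test. P-values rest on the differences between these libraries alone, and the animal or culture behind each library is not named. The labels name an RNeasy kit and the methods another kit for RNA extraction. Alternatives were other pseudocounts, filters and scalings, protein-coding genes alone, other variance settings, the replicate block and each library left out. The weighted fit of solved reads (voom) and the fit without both libraries of number 4 were chosen after seeing the data.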

Additional observations from a re-analysis of the deposited data

Results flagged for a closer look

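Of 20 groups of 4 libraries checked for a library far from the others, 1 had such a library. Bhlhe40 was at 35.8 FPKM in OVA-T4 replicate 4, apart from the other OVA-T4 libraries at 27.4 to 28.3 FPKM. In 20 independent groups about 1 such library would arise by chance, but these groups share genes and libraries. Library 4 was also the highest of both groups for Zeb2 and the lowest of both for Hic1, and the cause was not tested. Without OVA-T4 replicate 4 the log2 difference of Bhlhe40 was 1.19.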

How the results depend on the processing

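No alternative that gave a value ended a call or turned the direction of Eomes, Tbx21, Zfp683 or Bhlhe40. The Zeb2 difference ranged between -0.335 and 0.0847 with each library left out, turning only without OVA-T4 replicate 4 (0.0847), and a filter of a mean of 1 FPKM left Zeb2 out. The replicate block gave Hic1 the same 0.32 with an adjusted p of 0.0238, and no other member's call changed under the block. Prdm1, below the filter, moved to -0.59 with a pseudocount of 0.1 and to -1.34 with voom and no filter. The family genes had 8 calls under quantile normalization, 3 higher and 5 lower, against 5 higher and 0 lower as reported. Prdm1 over Bcl6 ranged between -1.53 and -1.20 with each library left out and lost its call without any 1 OVA-T4 + TGFβ library. The causes of these changes were not tested. Over all genes, 60.3% of calls were higher as reported (3955 higher and 2607 lower), 47.5% with median of ratios scaling (3129 and 3460), 46.8% with quantile normalization (2987 and 3400) and 65.1% with TPM scaling (4224 and 2266). The median of all genes was 0.08 as reported, -0.02, -0.03 and 0.11 in those scalings. Depth limits Prdm1, with 2 to 30 reads a library, Zeb2, with 45 to 163, and Zfp683 in OVA-T4 libraries, with 34 to 89.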
